A study of Mus musculus with 4 samples.

Results

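The mouse eye was examined here for the transcripts of 37 genes of the cell cycle and of DNA replication, a list of mitosis, replication and cyclin genes that was matched by symbol. All 37 were found among the 22558 rows of the deposited table. They were divided by role into 25 genes of mitosis and 12 genes of replication and its onset. RNA came from whole eyes of 6-week-old Abca4-/-Rdh8-/- mice, with 3 mice behind each of 4 conditions. These were a control without light exposure and eyes taken 3 h, 24 h and 7 days after light exposure. Every condition carried both deletions, so no wild-type eye was compared, and the labels state neither the strength nor the length of the light. The values are FPKM, fragments per kilobase of transcript scaled to the mapped fragments of the library, with 1 value per gene and condition although the design speaks of triplicates, so no difference has a replicate check and no test was run. Where 4 values follow each other they stand for control, 3 h, 24 h and 7 days in that order, and 3 ratios or counts for the light conditions in the same order.

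Cells that divide copy their DNA in S phase and separate it in mitosis. E cyclins and the MCM helicase start replication, the PCNA clamp and the enzymes that make deoxynucleotides carry it through, and CDK1 with its A and B cyclins then drives mitosis, which ends when the anaphase-promoting complex destroys those cyclins. Neurons of the adult mouse retina no longer divide, whereas the epithelium of the lens, the basal cells of the corneal surface, vessels, connective tissue and blood cells in the eye can. Transcripts of mitotic genes are restricted to cycling cells to a greater degree than those of replication genes such as Pcna, which also serve DNA repair.

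Although the samples are labelled as whole eyes, retinas are named in the protocol for RNA extraction. The lens gene Cryaa was at 25471 FPKM in the control and the corneal gene Krt12 at 1680, the rod gene Nrl was at 588 and the pigment epithelium gene Rpe65 at 123.5, so lens and cornea were in the sample along with retina. Depth was estimated from olfactory receptor genes seen in 1 condition only, whose median FPKM there was taken as that of 1 fragment, and came to about 23900000, 22800000, 30300000 and 41800000 fragments. The Y-linked gene Ddx3y was at 6.59 FPKM at 7 days and at most 0.00528 in the other conditions, and Xist was at 37.1 FPKM at 7 days and 47.2 to 53.8 otherwise. Sex and time therefore cannot be told apart in comparisons with the 7-day eyes.

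Most of these genes were low in the eye, although a larger share of them than of all rows passed 1 FPKM. Above 1 FPKM were 32, 28, 25 and 27 of the 37 (86.5%, 75.7%, 67.6% and 73.0%), beside 62.8%, 62.5%, 62.4% and 62.8% of all rows. The difference between conditions lay in the mitosis genes, of which 21, 16, 14 and 16 of 25 passed 1 FPKM. Of the 12 replication genes 11, 12, 11 and 11 did. In all 4 conditions 24 of the 37 genes were above 1 FPKM, and 4 were above it in none, namely Bub1, Cenpe, Cenpf and Ndc80. These counts over the conditions were not made for all rows. Averaged over the conditions, 2 genes exceeded 10 FPKM (Spc25 and Pcna), 5 lay between 5 and 10, 21 between 1 and 5, and 9 below 1. Of all 22558 rows, 14194 averaged at least 1 FPKM, and 3697 of these lay between 1 and 5.

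**Figure D1:**
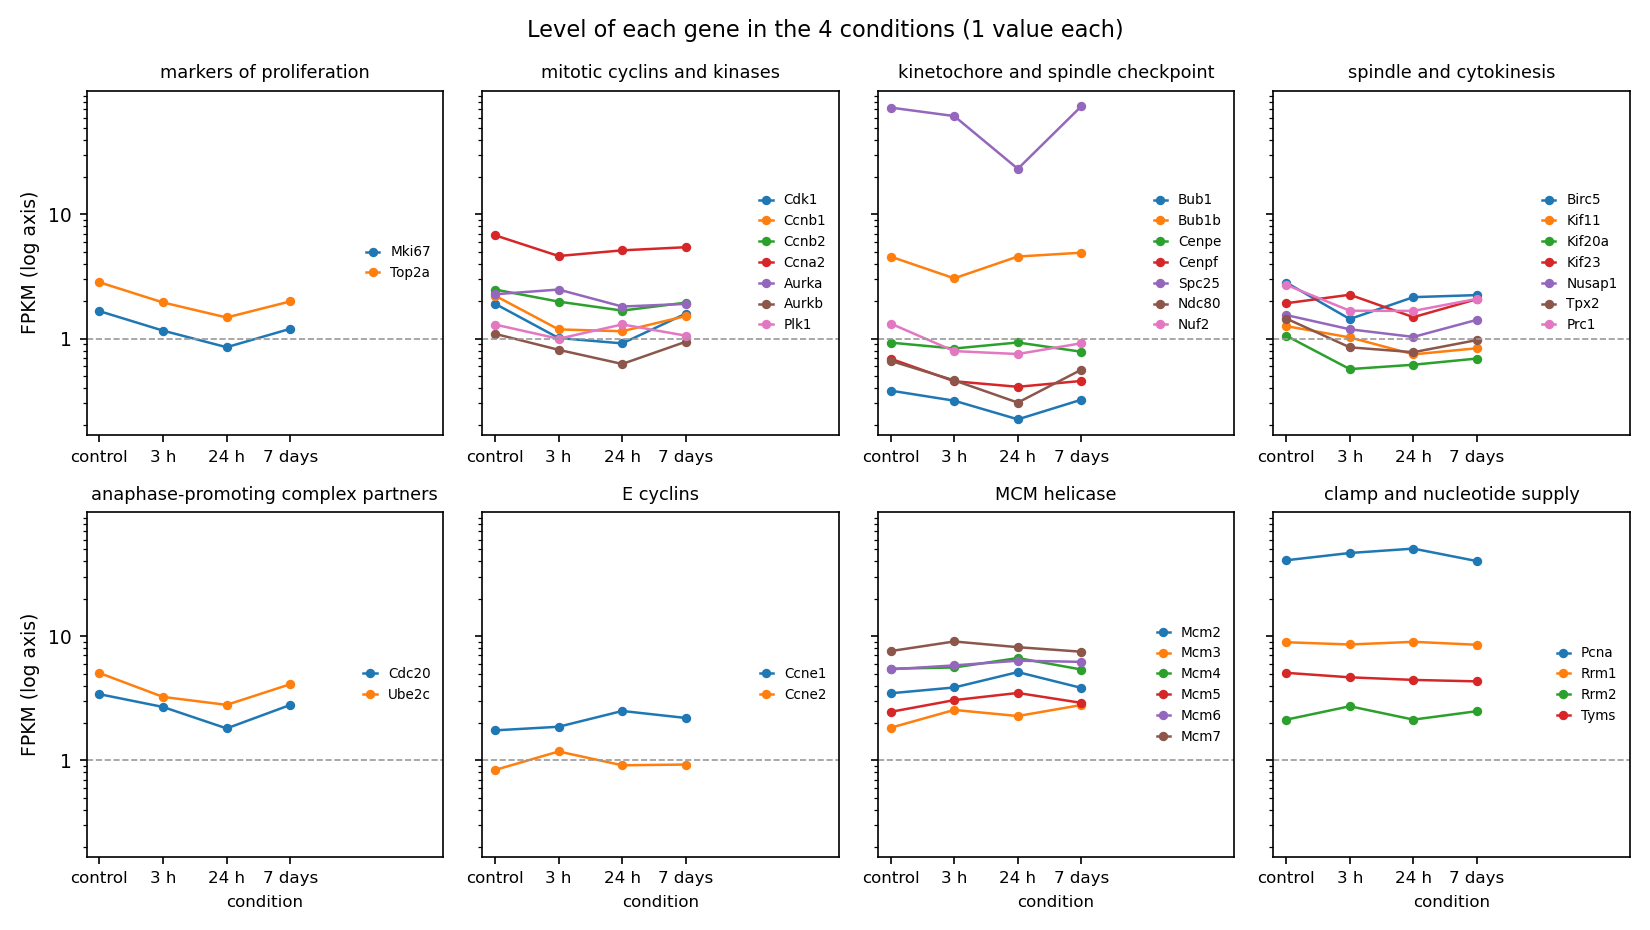
FPKM on a log axis (vertical) in the control and 3 h, 24 h and 7 days after light (horizontal) for each of the 37 genes, in panels by role, with 1 point per condition and a dashed line at 1 FPKM. Most mitosis genes lie between 0.223 and 6.79 FPKM with the control as their highest point, while Spc25 and Pcna stand far above the other genes of their panels.

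After light most transcripts of mitosis were lower than in the control, and most of those of replication were slightly higher at 3 h and 24 h. At 3 h, 23 of the 25 mitosis genes were lower than in the control, at 24 h 22 and at 7 days 22, and their median FPKM ratio to the control was 0.70, 0.59 and 0.81. Of all rows above 0 in both conditions, 46.8%, 49.9% and 49.8% were lower, with a median ratio of 1.01, 1.00 and 1.00. Of all genes with a mean of 1 to 5 FPKM, the range that holds most of the mitosis genes, 57.1%, 56.6% and 49.5% were lower. The replication genes went the other way, with 10, 11 and 7 of 12 higher, beside 53.2%, 50.1% and 50.2% of rows above 0 in both conditions. Their median ratio was 1.13, 1.196 and 1.11. Their count at 7 days was thus near that of all rows. At 3 h 5 of the 12 were lower when the libraries were scaled to the same sum. That sum left out only the listed markers of lens fibre, surface epithelium, red cells and skeletal muscle. Taken over protein-coding genes alone, it left 3 of the 12 lower at 3 h. These 3 comparisons share the 1 control value of each gene. In RNA from a whole organ, fewer dividing cells and less of a transcript per cell cannot be told apart.

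The differences were mostly less than 2-fold. On the scale of log2 of (FPKM + 1), on which the change of a low gene is understated, 28 of the 37 genes had a mean of at least 1 FPKM and were counted. Of these, 17 were mitosis genes with medians of -0.38, -0.46 and -0.24, and 11 were replication genes with medians of 0.12, 0.21 and 0.11. All genes with that mean had medians of 0.02, 0.01 and 0.00, and those with a mean of 1 to 5 FPKM -0.03, -0.03 and 0.00. No gene of the list was 1 log2 unit lower at 3 h or 7 days (0.24% and 0.19% of all genes were), and 1, Spc25, was so at 24 h (0.359%). None was 1 log2 unit higher at any time (0.55%, 0.747% and 0.409% of all genes).

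A smaller difference, a plain FPKM ratio of 1.5, was also counted, a size chosen after the values were seen. At least 1.5-fold lower than the control were 9 of the 25 mitosis genes at 3 h, 17 at 24 h and 3 at 7 days. The same held for 5.97%, 7.19% and 5.38% of rows above 0 in both conditions and for 4.44%, 6.84% and 1.81% of genes with a mean of 1 to 5 FPKM. None of the 12 replication genes was lower by that much at any of the 3 times, and 1 gene of the 37, Mcm3 at 7 days, was higher. Of rows above 0 in both conditions 5.95%, 6.31% and 4.74% were at least 1.5-fold higher. Between their highest and lowest conditions 20 of the 25 mitosis genes differed by at least 1.5-fold, as did 1 of the 12 replication genes and 23.3% of genes with a mean of 1 to 5 FPKM. Under 3 other scalings of the libraries 23 to 24 mitosis genes were lower at 3 h, 25 at 24 h and 22 to 23 at 7 days. Of the replication genes 7 to 10 were then higher at 3 h, 9 at 24 h and 7 at 7 days.

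**Figure D2:**
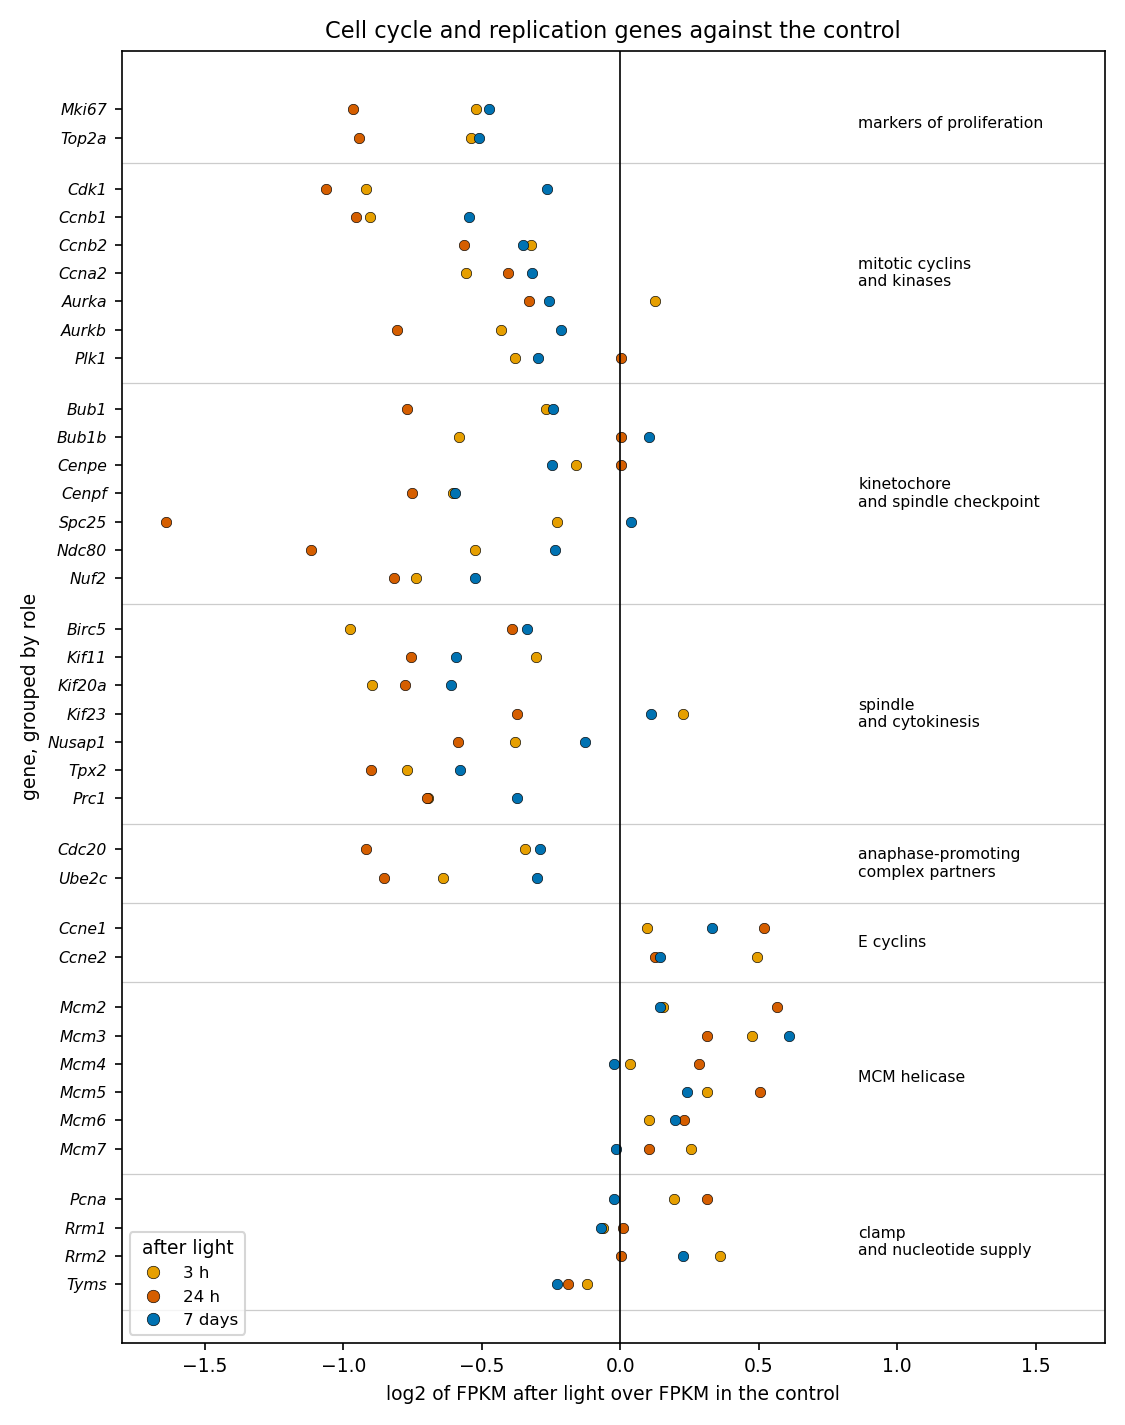
Log2 of the FPKM after light over the FPKM in the control (horizontal) for each gene (vertical, grouped by role), with 1 point each for 3 h, 24 h and 7 days and no error bars because each is a single value. Mitosis genes lie mostly left of 0, with Spc25 farthest at 24 h (-1.64), and replication genes lie between -0.23 and 0.61.

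The proliferation markers showed the pattern plainly. Mki67 encodes Ki-67, a nuclear protein of cycling cells, and was at 1.66, 1.16, 0.851 and 1.197 FPKM. Its ratio to the control was thus 0.70, 0.51 and 0.72. Because its coding sequence is long, these values rest on about 378, 252, 246 and 477 fragments, and the log2 ratio of -0.97 at 24 h has a counting error of 0.12. Such errors cover counting alone and not the spread between mice. Top2a, the topoisomerase that untangles replicated chromosomes, was at 2.84, 1.95, 1.48 and 1.99 FPKM. Its log2 ratio at 24 h was -0.94, with a counting error of 0.13, so both markers were highest in the control and lay below it at 24 h by more than their counting error.

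Among the mitotic kinases and cyclins, Cdk1, the kinase that triggers mitosis, was at 1.91, 1.01, 0.914 and 1.59 FPKM. Its coding sequence is short and it rests on only about 41, 21, 25 and 59 fragments, so its ratio of 0.48 at 24 h, a log2 ratio of -1.06, carries a counting error of 0.37. Ccnb1, the cyclin B1 gene whose product activates CDK1, was at 2.22, 1.18, 1.14 and 1.52 FPKM. It had the same order of conditions as Cdk1. Ccnb2, for cyclin B2, was at 2.48, 1.98, 1.68 and 1.95 FPKM, and Ccna2, the cyclin A2 gene that acts in S phase and early mitosis, at 6.79, 4.62, 5.13 and 5.44 FPKM. Ccna2 was lowest at 3 h rather than at 24 h, and its counting error on the log2 ratio at 3 h was 0.16 against a ratio of -0.56.

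The mitotic kinases beside CDK1 differed among themselves. Aurkb, the kinase of the chromosomal passenger complex, was at 1.09, 0.811, 0.624 and 0.942 FPKM. Aurka, the kinase of the spindle poles, was at 2.27, 2.48, 1.81 and 1.90 FPKM and so was slightly higher at 3 h. Plk1, which acts from mitotic entry to cytokinesis, was at 1.30, 0.995, 1.30 and 1.05 FPKM, with no difference at 24 h. The counting errors of these log2 ratios against the control ran from 0.23 to 0.43, and none of the ratios of the 3 kinases reached 2 counting errors.

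Promoters of cell cycle genes are known for a few short elements, which are shown here as a description of these genes. A link between the elements and the directions of change was not tested. The CHR element (TTTGAA) and the CCAAT box bind complexes that time mitotic genes, and E2F sites those that time genes of replication onset. RefSeq promoters of the GRCm38.p6 assembly, which is not the mm9 build of the expression values, were matched by symbol for 31 of the 37 genes. Aurkb, Ccna2, Kif20a, Tpx2, Ccne2 and Mcm4 had no entry. The 200 bases before the start of 4 mitosis genes and 2 MCM genes, chosen because they hold such letters, read as follows, 5′ to 3′ on the gene's strand, with CHR elements, CCAAT boxes and E2F sites on either strand in capitals.
Cdk1 (chr10:69352913-69353112, minus strand): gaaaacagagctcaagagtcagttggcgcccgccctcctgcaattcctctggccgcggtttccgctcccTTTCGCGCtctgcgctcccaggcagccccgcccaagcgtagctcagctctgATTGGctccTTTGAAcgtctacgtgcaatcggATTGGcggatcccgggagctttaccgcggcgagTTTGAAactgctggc
Top2a (chr11:99024190-99024389, minus strand): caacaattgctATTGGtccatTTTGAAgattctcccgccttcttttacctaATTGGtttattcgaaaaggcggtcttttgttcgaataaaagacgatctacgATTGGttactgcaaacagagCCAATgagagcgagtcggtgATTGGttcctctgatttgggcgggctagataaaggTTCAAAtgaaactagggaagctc
Cdc20 (chr4:118437344-118437543, minus strand): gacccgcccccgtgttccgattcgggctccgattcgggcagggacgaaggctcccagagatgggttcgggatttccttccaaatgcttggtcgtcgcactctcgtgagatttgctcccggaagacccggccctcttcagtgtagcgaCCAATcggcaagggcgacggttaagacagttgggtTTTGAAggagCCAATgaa
Kif11 (chr19:37376182-37376381, plus strand): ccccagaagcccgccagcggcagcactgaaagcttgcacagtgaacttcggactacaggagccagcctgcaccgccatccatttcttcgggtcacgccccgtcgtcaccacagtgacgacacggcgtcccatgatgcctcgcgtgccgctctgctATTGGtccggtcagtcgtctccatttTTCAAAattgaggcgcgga
Mcm5 (chr8:75109309-75109508, plus strand): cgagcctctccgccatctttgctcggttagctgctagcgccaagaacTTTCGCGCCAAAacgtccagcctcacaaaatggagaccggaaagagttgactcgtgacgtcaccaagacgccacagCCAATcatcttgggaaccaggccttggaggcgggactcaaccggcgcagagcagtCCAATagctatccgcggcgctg
Mcm6 (chr1:128359706-128359905, minus strand): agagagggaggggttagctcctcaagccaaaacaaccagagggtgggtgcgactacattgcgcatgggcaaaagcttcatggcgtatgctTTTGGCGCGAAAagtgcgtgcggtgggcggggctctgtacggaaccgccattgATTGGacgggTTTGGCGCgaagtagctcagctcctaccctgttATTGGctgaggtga

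Cdk1 and Top2a each held 2 CHR elements in these windows, Cdc20 and Kif11 1 each, and Mcm5 and Mcm6 none. E2F sites numbered 2 in Mcm5, 3 in Mcm6 and 1 in Cdk1, and in both MCM genes a pair on opposite strands overlapped. Searched over the 250 bases before the start on both strands, the CHR element stood in 8 of 21 mitosis genes and 1 of 10 replication genes with a promoter, and in 18.3% of 27025 genes. CCAAT stood in 17 of 21, 8 of 10 and 37.5%. An E2F site, written as TTTCCCGC, TTTGGCGC, TTTCGCGC or TTTGCCGC, stood in 1 of 21, 3 of 10 and 2.16%. The 3 replication genes with an E2F site were Mcm5, Mcm6 and Mcm7, and the 1 with a CHR element was Mcm2. Of 20 genes that govern G1, a list counted further below, 6 held the CHR element, 10 CCAAT and 7 an E2F site. For 28 of the 31 genes the end of the promoter entry lay in an annotated transcript of the gene; for Aurka, Mcm5 and Mcm6 it did not, so the starts of these 3 are less sure. Such matches describe the letters and no binding was measured.

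The kinetochore ties chromosomes to the spindle, and its genes held both the lowest and the highest levels of the list. Bub1, a checkpoint kinase, was at 0.380, 0.316, 0.223 and 0.322 FPKM. Cenpf, a large protein of the outer kinetochore, was at 0.688, 0.453, 0.408 and 0.455 FPKM. Although low, Cenpf is long and rests on about 148, 93, 111 and 171 fragments, and its log2 ratios of -0.60, -0.75 and -0.60 carry counting errors of 0.19, 0.18 and 0.16. Cenpe, the kinesin of the kinetochore, was at 0.927, 0.831, 0.929 and 0.782 FPKM and differed little. Bub1b, which encodes the checkpoint protein BubR1, was at 4.57, 3.05, 4.57 and 4.91 FPKM. It was lower at 3 h alone, with a log2 ratio of -0.58 and a counting error of 0.125.

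The NDC80 complex is a rod of 4 proteins, NDC80, NUF2, SPC24 and SPC25, that binds microtubules, and its genes did not share a level. Ndc80 was at 0.661, 0.460, 0.305 and 0.561 FPKM, and Nuf2 at 1.32, 0.792, 0.750 and 0.916 FPKM. Spc24, which is not one of the 37 genes, was at 1.38, 1.19, 1.10 and 1.10 FPKM. Spc25 was at 72.4, 61.9, 23.3 and 74.4 FPKM, far above its partners in every condition on this scale per length. Its ratio to the control was 0.85, 0.32 and 1.03, and its log2 ratio of -1.64 at 24 h has a counting error of 0.08. The eyes at 24 h were thus apart from the other 3 conditions. The exons of Spc25 overlap those of no other gene in the GENCODE M21 annotation.

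**Figure D3:**
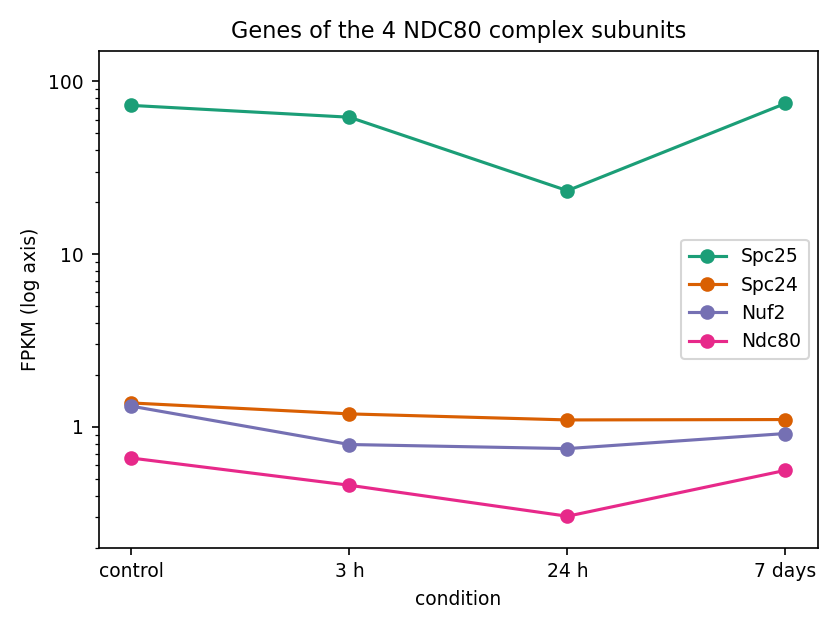
FPKM on a log axis (vertical) of the 4 NDC80 complex genes in the control and 3 h, 24 h and 7 days after light (horizontal), with 1 point per condition. Spc25 lies between 23.3 and 74.4 FPKM with its low point at 24 h, and Spc24, Nuf2 and Ndc80 lie between 0.305 and 1.38 FPKM.

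Rod transcripts, which are by far more abundant than those of dividing cells, were also low at 24 h but differed from Spc25 at 7 days. Of 7 rod markers 5, 6 and 7 were lower than the control, beside 46.8%, 49.9% and 49.8% of rows above 0 in both conditions. The summed FPKM of the rod markers was 6255, 5959, 4164 and 4556. The rod transcription factor gene Nrl was at 588, 567, 304 and 380 FPKM. The part of rods in the level of Spc25 was not tested. Without Spc25 the other 24 mitosis genes summed to 52.3, 37.01, 35.2 and 42.7 FPKM, or 0.71, 0.67 and 0.82 of the control. With it the sums were 124.8, 98.9, 58.5 and 117.1 FPKM.

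Genes of the spindle and of cytokinesis were lower than the control at all 3 times, except Kif23. Birc5, the survivin gene of the passenger complex, was at 2.83, 1.44, 2.15 and 2.24 FPKM, on about 28, 14, 27 and 39 fragments. Kif20a, a kinesin of the midzone and the cleavage furrow, was at 1.05, 0.567, 0.615 and 0.690 FPKM. Prc1, which bundles midzone microtubules, was at 2.71, 1.67, 1.67 and 2.09 FPKM, so that 3 h and 24 h coincided. Tpx2, an activator of Aurora A on the spindle, was at 1.45, 0.849, 0.776 and 0.972 FPKM. All 4 genes had the control as their highest value.

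The motor and bundling genes of the spindle were similar. Kif11, the kinesin that pushes the spindle poles apart, was at 1.26, 1.02, 0.745 and 0.835 FPKM. Nusap1, a spindle microtubule binder, was at 1.55, 1.19, 1.03 and 1.42 FPKM. Kif23, a kinesin of the cytokinetic midzone, was at 1.92, 2.25, 1.49 and 2.08 FPKM and so was higher than the control at 3 h and 7 days. The counting errors of the log2 ratios of Kif23 were 0.17 at 3 h and 0.16 at 7 days, against ratios of 0.23 and 0.11.

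The partners of the anaphase-promoting complex closed the mitotic list. Cdc20, its activator, was at 3.41, 2.69, 1.81 and 2.79 FPKM. Ube2c, the enzyme that hands it ubiquitin, was at 5.05, 3.24, 2.80 and 4.10 FPKM. Both were lowest at 24 h, at 0.53 and 0.55 of the control. The exons of Ube2c overlap those of the skeletal muscle gene Tnnc2 on the opposite strand, and strand was not given in the sources used here, so reads of the pair cannot be told apart there. Tnnc2 was at 241.5, 276.4, 172.7 and 225.4 FPKM, likewise lowest at 24 h. At 3 h, however, Tnnc2 was at 1.14 and Ube2c at 0.64 of the control.

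The MCM helicase unwinds DNA at replication forks as a ring of 6 related subunits, and all 6 genes were higher than the control at 3 h and at 24 h. Mcm2 was at 3.47, 3.86, 5.14 and 3.83 FPKM. Its ratio of 1.48 at 24 h, a log2 ratio of 0.57, carries a counting error of 0.12. Mcm5 was at 2.46, 3.06, 3.49 and 2.90 FPKM and Mcm4 at 5.47, 5.598, 6.67 and 5.39 FPKM. Like Mcm2 they were highest at 24 h. Mcm6 was at 5.41, 5.82, 6.35 and 6.21 FPKM and Mcm7 at 7.59, 9.07, 8.16 and 7.498 FPKM, with Mcm7 highest at 3 h.

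Mcm3 stood apart from the other subunits at 7 days. It was at 1.83, 2.55, 2.27 and 2.79 FPKM, and its log2 ratio of 0.61 at 7 days has a counting error of 0.16. Mcm4 and Mcm7 were near the control at that time, with ratios of 0.99 and 0.99. Summed, the 6 genes were at 26.2, 29.9, 32.1 and 28.6 FPKM. All 6 were higher at 24 h under each of 3 other scalings. At 3 h all 6 were higher after scaling by the median ratio. With the libraries set to the same sum without the listed lens fibre, surface epithelium, red cell and muscle markers, 4 were higher. This scaling shifted the 3 h values by -0.15 log2 units. With that sum taken over protein-coding genes, 5 were higher.

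The E cyclins bring cells from G1 into S phase. Ccne1 was at 1.74, 1.86, 2.50 and 2.19 FPKM, and Ccne2 at 0.836, 1.18, 0.912 and 0.925 FPKM. Both had the control as their lowest value, on about 51 and 24 fragments. The log2 ratio of Ccne1 at 24 h was 0.52 with a counting error of 0.25.

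The clamp gene Pcna and the nucleotide enzyme genes differed by at most 1.28-fold between conditions. Pcna was at 40.9, 46.8, 50.7 and 40.2 FPKM, and its log2 ratio of 0.31 at 24 h has a counting error of 0.07. Rrm1, the large subunit of ribonucleotide reductase, was at 8.94, 8.57, 9.01 and 8.53 FPKM, within 1.06-fold over all conditions. Rrm2, the small subunit that is made in S phase, was at 2.13, 2.73, 2.13 and 2.49 FPKM. Tyms, the thymidylate synthase gene, was at 5.07, 4.66, 4.44 and 4.33 FPKM, the one replication gene that was below the control at all 3 times, with counting errors of 0.18 to 0.20 on log2 ratios of -0.12 to -0.23.

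The light-exposed eyes were also compared with each other. From 3 h to 24 h, 19 of the 25 mitosis genes were lower, beside 52.8% of rows above 0 in both, with a median ratio of 0.87, and 7 of the 12 replication genes were higher (47.2%), with a median ratio of 1.07. At least 1.5-fold lower were 3 of the mitosis genes (6.49% of rows) and 1 was higher by that much (5.18%). Spc25 had the lowest ratio, 0.38, and was past 1 log2 unit (0.437% of all genes with a mean of at least 1 FPKM were lower by that much and 0.514% higher). Bub1b and Birc5 had the highest ratios of the mitosis genes, 1.498 and 1.501. From 24 h to 7 days, 23 of the 25 mitosis genes were higher, beside 49.5% of rows, with a median ratio of 1.25. Spc25 alone was past 1 log2 unit (0.296% of all genes were higher by that much and 0.514% lower). At least 1.5-fold higher were 5 of them (5.41% of rows), namely Spc25 (3.20), Ndc80 (1.84), Cdk1 (1.74), Cdc20 (1.55) and Aurkb (1.51). Of the replication genes 9 of 12 were lower (50.5% of rows), with a median ratio of 0.93, Mcm2 and Pcna among them at 0.75 and 0.79. The mitosis genes that were lower were Plk1 and Cenpe, at 0.81 and 0.84, and none of the 37 genes was lower by 1.5-fold (5.04% of rows).

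Further genes of the same pathways, listed apart from the 37, were counted in the same way. Of 35 other mitosis genes 28, 32 and 30 were lower than the control, beside 46.8%, 49.9% and 49.8% of all rows above 0 in both conditions. Their median ratios were 0.81, 0.80 and 0.85. None of the 21 with a mean of at least 1 FPKM was 1 log2 unit lower or higher. Among them, named after their values were seen, the centromere histone gene Cenpa was at 2.97, 1.82, 1.92 and 2.63 FPKM and the cytokinesis gene Anln at 2.13, 1.42, 1.21 and 1.52 FPKM. Pttg1, the most abundant gene of this list and named likewise, went the other way. It was at 27.4, 31.1, 28.1 and 31.3 FPKM, above the control at every time after light. Cdc25c of this list, given further below, was above the control at 3 h. Foxm1, a transcription factor of mitotic genes, was at 0.835, 0.687, 0.613 and 0.793 FPKM. Of 40 other replication genes, 23, 28 and 21 were higher, beside 53.2%, 50.1% and 50.2% of all rows above 0 in both conditions, with median ratios of 1.05, 1.11 and 1.02. The counts at 3 h and 7 days were near those of all rows. Gins2, a subunit of the replicative helicase chosen in the same way, was at 1.96, 2.28, 3.998 and 2.83 FPKM, and Pola2, of DNA polymerase alpha, at 2.99, 2.95, 5.23 and 3.10 FPKM.

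Genes that govern G1 were mixed. Of 28 such genes, 16, 19 and 15 were higher than the control, beside the same 53.2%, 50.1% and 50.2% of rows, with median ratios of 1.06, 1.06 and 1.01. The D cyclin genes Ccnd1 and Ccnd3 were at 26.9, 31.2, 38.01 and 33.5 FPKM and at 32.1, 37.4, 40.3 and 37.8 FPKM, both highest at 24 h. Ccnd2 was at 23.5, 20.8, 25.3 and 26.2 FPKM. Cdkn1a, the p21 inhibitor gene that p53 induces, was at 8.79, 8.53, 8.13 and 8.52 FPKM and did not differ by more than 1.08-fold. Wee1 was counted in this list although its kinase holds CDK1, the driver of mitosis, inactive. Chosen after its values were seen, Wee1 was at 3.45, 6.60, 5.33 and 4.88 FPKM.

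**Figure D4:**
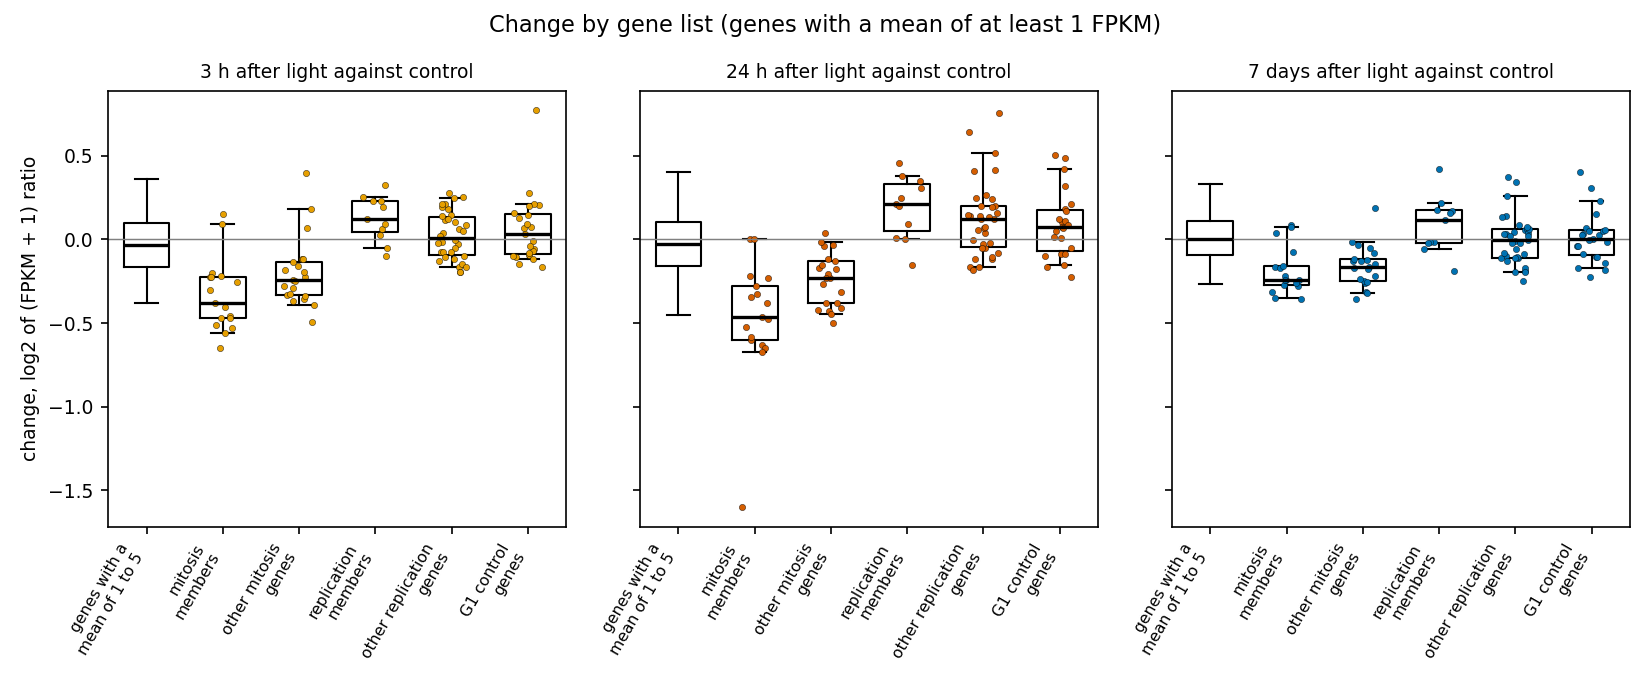
Change against the control on the scale of log2 of (FPKM + 1) (vertical) for gene lists (horizontal) at 3 h, 24 h and 7 days, over genes with a mean of at least 1 FPKM, where boxes span the quartiles with the median as a thick line, whiskers the 5th to 95th percentile and points single genes. The mitosis genes have medians of -0.38, -0.46 and -0.24 and the replication genes of 0.12, 0.21 and 0.11, while all genes with a mean of 1 to 5 FPKM centre near 0.

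Markers of cell types of the eye, some of which can divide, were read beside these values. Of all rows above 0 in both conditions, 46.8%, 49.9% and 49.8% were lower than the control, the shares to set beside the counts of these short lists. The fibroblast and matrix list had 8, 8 and 7 of 9 genes lower, and its sum of 2085 FPKM in the control stood after light at 0.71, 0.69 and 0.89 of the control. The median ratios of its genes were 0.53, 0.49 and 0.75. Endothelial markers had 8, 7 and 5 of 8 genes lower, and their sum of 96.7 FPKM stood at 0.69, 0.91 and 1.00 of the control. Lymphocyte markers were near 0, with a sum of 1.12 FPKM over 6 genes in the control, and after light the sum stood at 0.53, 0.67 and 0.82 of the control. Ms4a1 of this list was listed at 0 at 3 h. Red cell markers had 4, 6 and 6 of 7 genes lower and a sum of 80.1 FPKM that stood at 1.13, 0.60 and 0.58 of the control, and Hbb-b2 was listed at 0 at 3 h and 24 h.

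The epithelia went the other way or differed little, and the remaining lists varied. Surface epithelium markers had 0, 3 and 2 of 12 genes lower, and their sum of 4272 FPKM stood at 1.25, 1.19 and 1.23 of the control. Lens epithelium markers had 4, 4 and 0 of 6 genes lower, with a sum of 177.7 FPKM at 0.93, 0.93 and 1.07 of the control, and lens fibre markers had 9, 2 and 1 of 15 lower, with a sum at 0.97, 1.08 and 1.08. Microglia and macrophage markers had 4, 5 and 0 of 14 genes lower and a sum of 122.0 FPKM at 1.12, 1.09 and 2.31, so that they were high at 7 days, when Mki67 was 1.41-fold above its 24 h level and still below the control. Retinal progenitor markers, several of which glia and bipolar cells also express, had 6, 3 and 3 of 8 genes lower, with a sum of 104.4 FPKM at 0.94, 1.02 and 1.25. Skeletal muscle had 8, 18 and 17 of 18 genes lower, with a sum of 2661 FPKM at 1.08, 0.65 and 0.87. Pigment epithelium markers had 2, 4 and 1 of 6 lower, and their sum was at 1.15, 0.97 and 1.35. The part of any of these cell types in the mitotic differences was not tested.

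**Figure D5:**
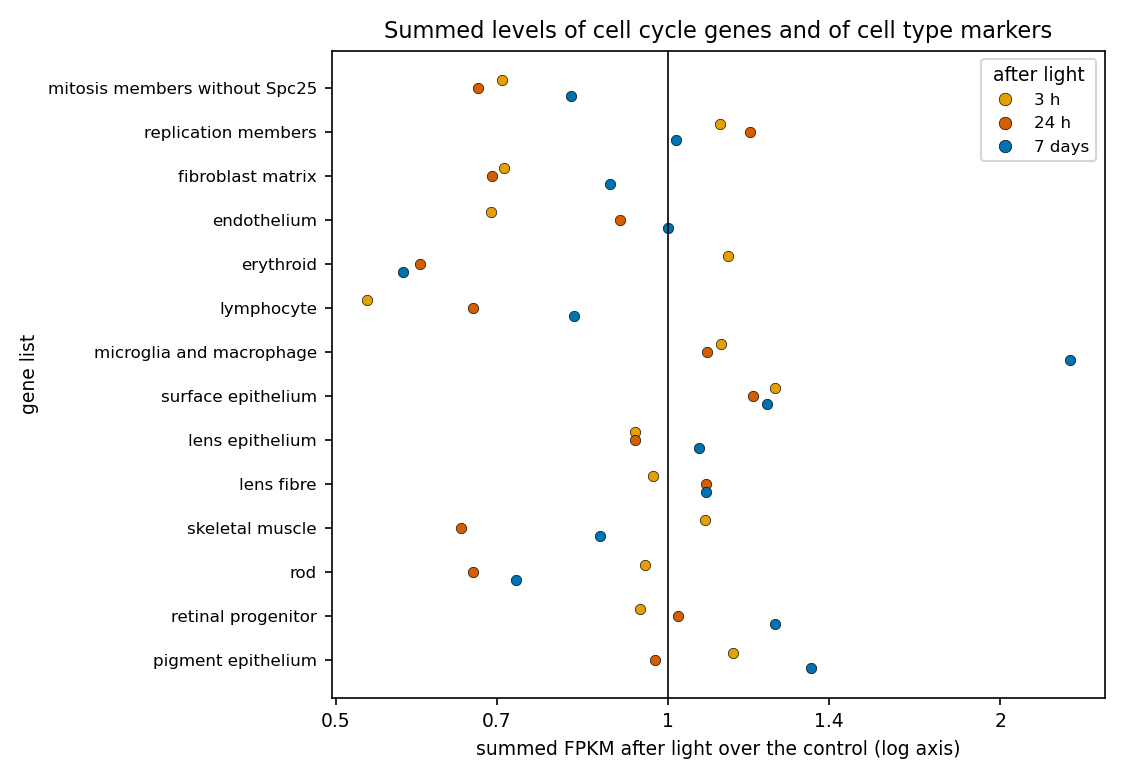
Summed FPKM after light over that in the control (horizontal, log axis) for the mitosis genes without Spc25, the replication genes and lists of cell type markers (vertical), with 1 point per time. The mitosis genes (0.71, 0.67 and 0.82) and the fibroblast matrix list (0.71, 0.69 and 0.89) lie left of 1 at all 3 times, as do the lymphocyte (0.53, 0.67 and 0.82) and rod lists (0.95, 0.67 and 0.73), the surface epithelium lies right of it, and microglia stand at 2.31 at 7 days.

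In 8 of the 37 genes exons overlap those of another protein-coding gene on the opposite strand in the GENCODE M21 annotation, which may differ from the one the authors used. These were Ccna2, Kif20a, Nusap1, Prc1, Cdc20, Ube2c, Ccne2 and Mcm7, and their values are less certain. Without them the median over the mitosis genes with a mean of at least 1 FPKM stayed below 0 and that over the replication genes above 0 at all 3 times.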

How the data were processed

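RNA from whole eyes was sequenced in 4 conditions labelled as eyes of 3 mice each. The authors deposited FPKM values, 1 per gene and condition. Per the submitters' processing notes the tools were TopHat2 (version 2), Cuffdiff 2.2.1 and bcl2fastq 1.8.3 and the build mm9, to which the series design adds Cufflinks. Strand and annotation were not given in the sources used here, nor whether a value pools or averages the mice. FPKM of all genes add up to different sums per library, so very abundant transcripts can move every other value.

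Here plain FPKM ratios and log2 of (FPKM + 1) ratios were computed with Python 3.11.15 and pandas 2.3.3. The latter used genes with a mean of at least 1 FPKM, and a gene was counted as changed at 1 log2 unit. Fragments per gene were estimated from FPKM, the longest coding sequence in GENCODE M21 and the depth, and a counting error is the square root of the summed inverse fragment numbers, put on the log2 scale. Coding sequences omit UTRs, so the fragment numbers are rough. The depth was about 23900000, 22800000, 30300000 and 41800000 fragments. Every gene of the list could be named; of other pathway genes, the rule named those past 1 log2 unit (there were 0) and Cdkn1a, Foxm1 and the D cyclins. Spc24 was named outside it to complete its complex, and Cenpa, Anln, Pttg1, Gins2, Pola2, Wee1, Cdc6, Chek1, E2f7 and Cdc25c after their values were seen. The genes and lists were chosen with earlier results of these data known. The surface epithelium list held entries, Ktn1 and Pax6 among them, that are not specific to it. Other marker lists may also hold genes shared between tissues. Knstrn, Hbb-bt, Hbb-bs and Ahsp were not matched. 1 rod marker of the list is not reported here. Alternatives were another pseudocount, filters, 3 rescalings and a shorter promoter window; the protein-coding rescaling, the omission of genes with overlapping exons and the ratio of 1.5 were added after seeing the data. The log2 changes, their calls and the median-ratio scaling were tested on simulated data. These held genes of at least 5 FPKM in the control and changes larger than most seen here. Lower genes, smaller changes, the depth, the counting errors and the motif counts were not covered.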

Additional observations from a re-analysis of the deposited data

Results flagged for a closer look

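Kif23, the midzone kinesin gene, differed from the control in opposite directions at different times. Its log2 FPKM ratio was 0.23 at 3 h, -0.37 at 24 h and 0.11 at 7 days. Each is a single value and the difference between the times was not tested.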

How the results depend on the processing

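Of 385 alternative values 313 kept their direction and size, 54 moved and 18 reversed. A median had moved when it shifted by over 0.1 log2 units and a count when it shifted by over 1.5 times. The cause was not tested. With a mean of at least 5 FPKM only 2 mitosis and 5 replication genes are left, so the counts are smaller by construction. The median over the list was then 0.029, 0.093 and -0.018 against the control at 3 h, 24 h and 7 days, 0.108 for 24 h against 3 h and -0.071 for 7 days against 24 h. For mitosis genes it was -0.97 at 24 h, -0.12 at 7 days, -0.62 for 24 h against 3 h and 0.85 for 7 days against 24 h, and for replication genes -0.018 at 7 days. Lower were 3, 2 and 5 genes against the control, 2 for 24 h against 3 h and 5 for 7 days against 24 h. Of these, mitosis genes made up 2, 2, 1, 1 and 0, and replication genes 1 at 3 h, 0 at 24 h, 1 for 24 h against 3 h and 5 for 7 days against 24 h. Other mitosis genes were at 0.066 at 3 h and -0.14 for 24 h against 3 h, and other replication genes at -0.051 at 3 h. Without a filter the mitosis median at 3 h was -0.26, 23 mitosis genes were lower at 3 h, 22 at 7 days and 2 for 7 days against 24 h, G1 genes were at 0.018 for 24 h against 3 h and other replication genes at 0.019 at 7 days. A pseudocount of 0.1 gave mitosis medians of -0.52 at 3 h, -0.67 at 24 h and 0.38 for 7 days against 24 h, a list median of -0.33 at 24 h and -0.35 for other mitosis genes at 3 h.

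Each of the 3 rescalings left 3 replication genes lower at 24 h. Other replication genes at 3 h were at -0.012 by the median ratio, -0.087 by the sum and -0.015 by the protein-coding sum. By the sum the replication median at 3 h was 0.0075 with 5 genes lower, and G1 genes were at -0.071 at 3 h, -0.067 at 7 days and 0.028 for 24 h against 3 h. Other mitosis genes were then at 0.045 for 24 h against 3 h, and the log2 ratio of summed FPKM was -0.48 for mitosis genes at 3 h and 0.012 and -0.072 for replication genes at 3 h and 7 days. By the protein-coding sum G1 genes were at -0.022 at 7 days. Without Spc25 the mitosis sum was at -0.50, -0.57 and -0.29. Without genes with overlapping exons the list median was -0.077 at 3 h and -0.078 at 24 h, and 9 mitosis genes were lower at 7 days. By the plain ratio of 1.5, genes past the threshold were 9, 17 and 3 lower and 1 higher at 7 days, 3 lower and 1 higher for 24 h against 3 h, and 5 higher for 7 days against 24 h. Above 2 FPKM were 20 genes in the control, 17 at 3 h and 16 at 24 h. In 100 bases of promoter an E2F site stood in 0 mitosis genes and 1 replication gene. No paired analysis was possible because each condition has 1 value per gene.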

Other observations

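A few low genes from the lists counted above were picked after their values were seen. Cdc6 and Chek1 belong to the other replication genes, E2f7 to the genes that govern G1 and Cdc25c to the other mitosis genes. Cdc6, which loads the MCM helicase, was at 0.192, 0.394, 0.383 and 0.285 FPKM. It rests on about 8 fragments in the control, and its log2 ratio of 1.03 at 3 h has a counting error of 0.62. Chek1, the kinase of the replication checkpoint, was at 0.371, 0.722, 0.611 and 0.533 FPKM, with a log2 ratio of 0.96 and a counting error of 0.50 at 3 h. Both genes are thus under 2 counting errors from the control. E2f7, a repressor among the E2F factors, was at 0.229, 0.472, 0.484 and 0.406 FPKM, with a log2 ratio of 1.04 and a counting error of 0.46 at 3 h. Cdc25c, a phosphatase that activates CDK1, was at 1.08, 1.74, 0.872 and 0.667 FPKM, above the control at 3 h and below it later. Its log2 ratios of 0.69, -0.31 and -0.69 have counting errors of 0.32, 0.35 and 0.34.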
